A study of Mus musculus with 2 samples.

Results

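The genes of the proteasome were examined in mouse soft-tissue sarcoma cells after silencing of the circular RNA circCsnk1g3. Members were taken by name: every gene of the count table whose symbol starts with Psma to Psmg followed by a digit, pseudogenes left out. The pattern found 50 of 25509 genes. They comprise 31 constitutive subunits (14 of the standard 20S core and 17 of the 19S cap), 5 immunoproteasome genes (Psmb8, Psmb9, Psmb10, Psme1 and Psme2) and 14 others. The others are activators, an inhibitor, assembly chaperones, 2 tissue-restricted core subunits, a retrogene copy of Psme2, and Psmc3ip, which is named for binding Psmc3 and is no proteasome subunit.

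The cells were C57BL/6 mesenchymal stem cells with p53 knocked out and Ccne1 overexpressed (p53-/-Ccne1+). They had formed subcutaneous tumors in primary recipients, were seeded in the lungs of secondary recipients and were recovered from the sarcoma foci there, and only then received a hairpin. There was 1 poly(A) RNA library of cells with the hairpin against circCsnk1g3 (shcircCsnk1g3) and 1 of cells with the control hairpin (shCTR). Both libraries therefore share the p53 loss, the Ccne1 gain and the passage through lung, and they differ in the hairpin. The labels do not say how many foci or cultures lay behind each library.

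The 20S proteasome is a barrel of stacked rings, with alpha subunits at the ends that gate the entry and beta subunits inside that cut proteins into peptides. The 19S cap binds ubiquitin-tagged proteins, and its ATPases unfold them and thread them into the core. Interferon, above all interferon gamma, is known to switch cells to the immunoproteasome, in which Psmb8, Psmb9 and Psmb10 replace the catalytic subunits Psmb5, Psmb6 and Psmb7. It also induces the PA28 activator, built from Psme1 and Psme2, and the peptides made supply MHC class I molecules.

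The libraries held 38792143 (shcircCsnk1g3) and 42709996 (shCTR) counts, and 15256 and 15326 genes had a count above 0. Counts were scaled with TMM, a method that sets the bulk of genes to an equal level, and are given as CPM, the count of a gene relative to the library's scaled total. A log2 ratio is that of shcircCsnk1g3 over shCTR, with its 95% interval in parentheses. With 1 library per condition there was no replicate check and no test, and the intervals cover counting error only. A ratio was computed where either library had 10 counts or more, which left 12941 genes, called tested genes here. Of these, 5.39% were at least 1.5-fold higher after silencing and 6.31% at least 1.5-fold lower.

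The linear transcript of the host gene Csnk1g3, whose exons the circRNA shares, had 2159 and 2411 counts in shcircCsnk1g3 and shCTR (log2 ratio -0.05). These poly(A) libraries do not measure the circRNA, so the silencing was not checked here. Trp53 had 3841 and 4334 counts (-0.07), so a transcript was still counted in cells labelled p53-/-, and counts per gene do not show which part was deleted. Ccne1 had 893 and 963 counts (-0.00). Of 10 mesenchymal and sarcoma markers, 9 were tested, with a summed level of 12459 and 13221 CPM, and Thy1 had 0 and 1 count. Of 17 leukocyte markers, 11 were at 0 in both libraries, Ptprc had 1 and 0 counts, and the sum was 3.44 CPM in shcircCsnk1g3 and 6.30 CPM in shCTR, nearly all of it Cd68 (87 and 155 counts) and Laptm5 (45 and 102 counts). The 5 endothelial markers summed to 0.485 and 0.686 CPM. The 7 lung epithelial markers summed to 0.306 and 0.166 CPM, all from Foxj1, and the other 6 were at 0.

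Promoter sequence shows which of these genes carry the short motifs of the factors best known for driving them, and it was not used to choose them. RefSeq windows on GRCm38.p6 from 250 bases before to 50 bases after a start were available for 42 of the 50 genes. Psma8, Psmb1, Psmb2, Psmb7, Psmc3, Psmd3, Psmd7 and Psmg2 had no window and could not be searched. Motifs were searched on both strands, and no match of 1 motif overlapped a match of another. The interferon-stimulated response element core (GAAANNGAAA), bound by interferon regulatory factors, was in the window of Psme1 alone among the 5 immunoproteasome genes. It was also in 2 of 25 constitutive genes (Psmb3 and Psmd4), in 2 of 12 other members (Psmd9 and Psmg4) and in 3.99% of all genes. The gamma-activated site (TTCNNNGAA), a motif of interferon gamma responses, was in Psmb8 alone among the 5. It was in 1 of 25 constitutive genes (Psmd2), in 1 of 12 other members (Psmg1) and in 9.55% of all genes. The antioxidant response element core (TGACNNNGC), bound by Nfe2l1 and Nfe2l2, was in none of the 5 and in 4 of 25 constitutive genes (Psmb5, Psmb6, Psmc6 and Psmd12). It was in 2 of 12 other members (Psmd9 and Psme4) and in 13.99% of all genes. The CCAAT box was in Psmb9, in 10 of the 25 constitutive genes, in 4 of the 12 other members and in 41.1% of all genes.

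The windows of Psmb8 and Psme1 are shown as the immunoproteasome genes with an interferon motif, and those of Psmb5 and Psmb6 as the standard catalytic genes with the antioxidant motif. Each runs from base -150 to base 25, with the RefSeq start at 0, and the capitals mark the match. Psmb8 is read from chr17:34198045-34198220 on the plus strand with a gamma-activated site at -97 to -89, and Psme1 from chr14:55578344-55578519 on the plus strand with the reverse complement of the response element core at 9 to 18. Psmb5 is read from chr14:54617970-54618145 on the minus strand with the match at -47 to -39, and Psmb6 from chr11:70525207-70525382 on the plus strand with the match at -9 to -1.
Psmb8: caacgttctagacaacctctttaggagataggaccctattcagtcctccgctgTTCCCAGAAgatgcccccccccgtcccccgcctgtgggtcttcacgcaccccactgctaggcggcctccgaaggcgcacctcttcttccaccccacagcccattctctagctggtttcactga
Psme1: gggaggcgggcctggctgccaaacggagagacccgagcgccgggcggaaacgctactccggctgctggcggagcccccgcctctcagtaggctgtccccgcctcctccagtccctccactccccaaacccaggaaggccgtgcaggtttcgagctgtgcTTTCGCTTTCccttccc
Psmb5: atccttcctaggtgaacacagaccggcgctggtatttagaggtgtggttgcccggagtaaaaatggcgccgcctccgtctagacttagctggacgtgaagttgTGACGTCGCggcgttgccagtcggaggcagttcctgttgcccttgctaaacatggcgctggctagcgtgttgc
Psmb6: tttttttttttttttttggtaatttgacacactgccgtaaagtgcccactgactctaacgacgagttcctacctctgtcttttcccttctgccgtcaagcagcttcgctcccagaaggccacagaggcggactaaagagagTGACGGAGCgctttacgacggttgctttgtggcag

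Across the whole family the levels in the libraries lay close together. None of the 48 tested members was 1.5-fold higher or 1.5-fold lower, beside 5.39% and 6.31% of all tested genes. Both shares were smaller among abundant genes: of the 10662 genes that had 200 or more counts over both libraries, 1.99% were 1.5-fold higher and 3.14% lower. The median log2 ratio of the members was 0.03, beside 0.00 for all tested genes. A band of 0.25 on either side of 0 held 45 of the 48 members (93.75%), 66.2% of all tested genes and 74.7% of those with 200 or more counts. The spread of log2 ratios (SD across genes) fell with abundance, from 0.30 at 200 or more counts to 0.21 at 5000 or more. All 31 constitutive subunits had 5000 or more counts over both libraries, so the 200-count group is not matched to them in abundance. At a looser threshold of 0.32 on the log2 scale, 1 member was higher (Psme2b) and 1 lower (Psmc1), beside 12.3% and 13.1% of all tested genes.

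Small differences were resolved by the depth. The interval lay above 0 for 14 members and below 0 for 7, beside 26.9% and 28.2% of all tested genes, and it spanned 0 for 27. These counts depend on the scaling: total counts without TMM gave 24 above and 5 below, beside 31.8% and 23.7% of all tested genes, and a correction for GC content and length gave 21 and 10, beside 26.0% and 28.2%. Against TMM, 12 and 14 members changed their call under these settings, while DESeq2 size factors changed none. In all, 29 members were higher in shcircCsnk1g3 and 19 lower, beside 50.4% and 49.6% of tested genes. As a share of the library, the members took 0.660% (0.658 to 0.663) of the counts in shcircCsnk1g3 and 0.634% (0.632 to 0.637) in shCTR, exact Clopper-Pearson intervals. In bulk RNA, fewer cells of a type and less RNA per cell cannot be told apart, here and in every level below.

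**Figure D1:**
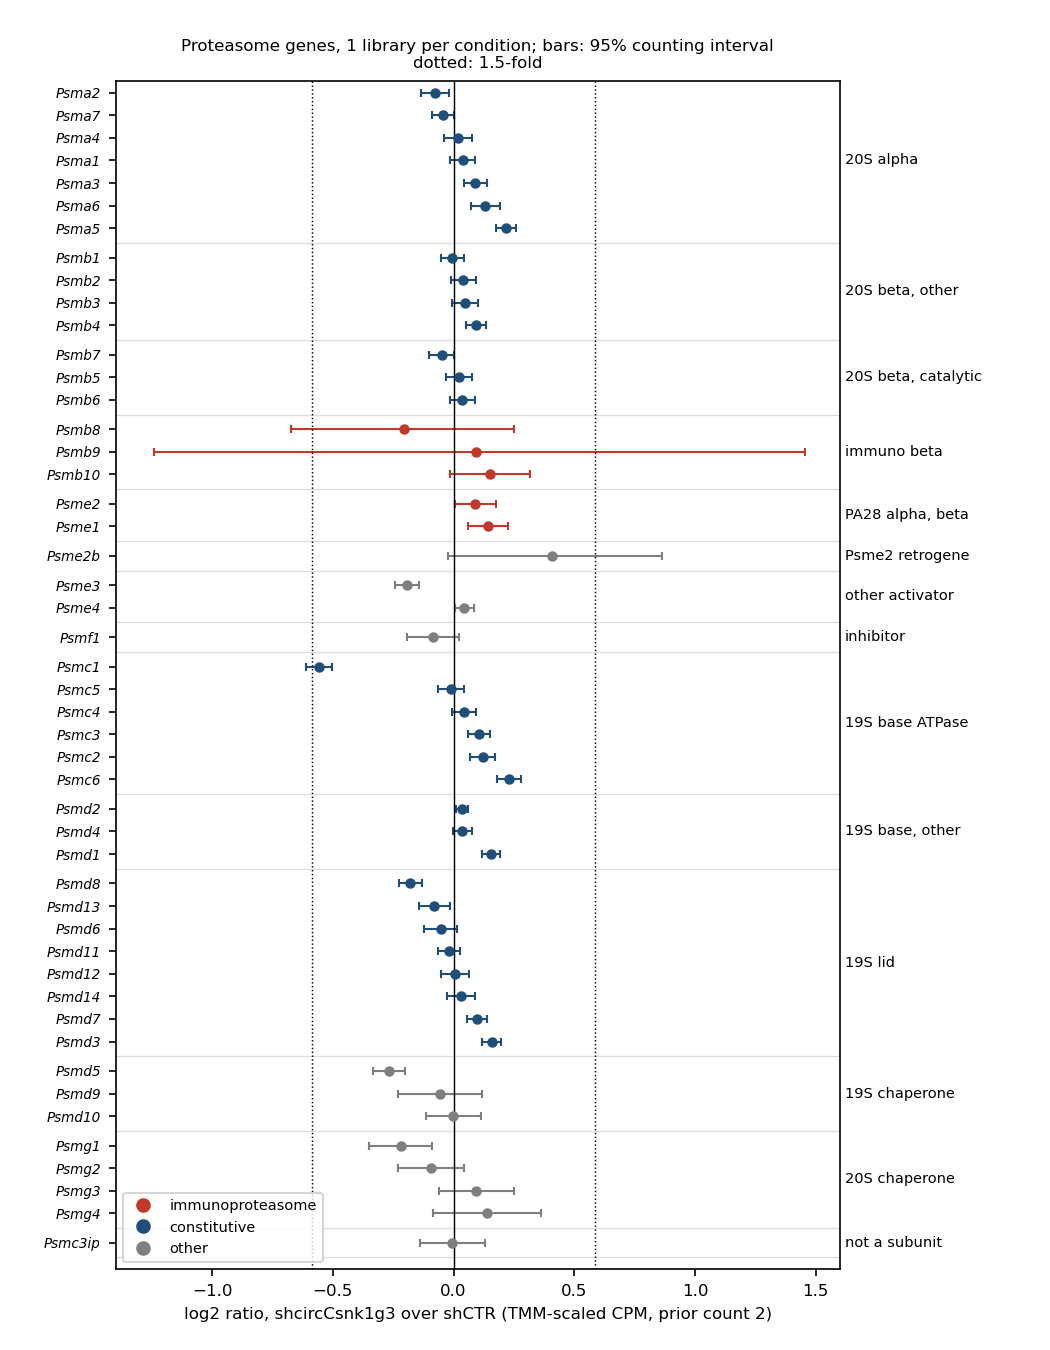
log2 ratio of TMM-scaled CPM, shcircCsnk1g3 over shCTR (x axis), for the 48 tested proteasome genes (rows, ordered by role named on the right), 1 library per condition. Points are ratios, bars 95% counting intervals, dotted lines 1.5-fold. Most points lie within 0.25 of 0, Psmc1 stands lowest at -0.56, and the bars of Psmb8 and Psmb9 are wide because their counts are low.

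The catalytic immunoproteasome subunits were scarcer than their standard counterparts in both libraries, and with TMM scaling none had an interval clear of 0. Psmb8 (ENSMUSG00000024338, chromosome 17, 34197721 to 34201454 on GRCm38), the chymotrypsin-like immuno form, had 73 counts in shcircCsnk1g3 and 91 in shCTR, 1.86 and 2.15 CPM, with a log2 ratio of -0.21 (-0.68 to 0.25). Psmb9 (ENSMUSG00000096727, chromosome 17, 34181987 to 34187764), which replaces Psmb6, had 11 counts in each, 0.281 and 0.260 CPM. Its log2 ratio of 0.09 (-1.24 to 1.45) gives no direction, and differences inside that interval were not detectable at this depth. Psmb10 (ENSMUSG00000031897, chromosome 8, 105935735 to 105938444), the trypsin-like immuno form, was the most abundant of them with 618 and 600 counts, 15.8 and 14.2 CPM, and a log2 ratio of 0.15 (-0.01 to 0.31). That interval moved above 0 with total counts, at 0.18 (0.02 to 0.35), and with the GC content and length correction, at 0.19 (0.02 to 0.35). Leukocytes are rich in these subunits, and the leukocyte markers summed to 3.44 CPM in shcircCsnk1g3 and 6.30 CPM in shCTR, with 14 of 17 at 3 counts or fewer in both. Their part in the levels of Psmb8 and Psmb9 was not tested.

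The PA28 genes were more abundant and slightly higher in shcircCsnk1g3. Psme1 (ENSMUSG00000022216, chromosome 14, 55578123 to 55581529), which encodes PA28 alpha, had 2361 counts against 2306 in shCTR, 60.2 and 54.6 CPM, a log2 ratio of 0.14 (0.06 to 0.23). Psme2 (ENSMUSG00000079197, chromosome 14, 55587441 to 55591113), which encodes PA28 beta, had 2167 and 2193 counts, 55.3 and 51.9 CPM, a log2 ratio of 0.09 (0.00 to 0.18). These were the immunoproteasome genes with an interval above 0, and both differences were smaller than 0.25 on the log2 scale. For Psme2 the count depends on how reads were divided with its retrogene Psme2b (chromosome 11). Of the 50-base windows of the longest coding transcript of Psme2, 59.3% also occur in Psme2b. Psme2b had 98 and 79 counts and the highest log2 ratio of the family, 0.41 (-0.02 to 0.86), with an interval that spanned 0 here and lay above 0 with total counts (0.01 to 0.90) and with the correction (0.04 to 0.93). With the counts of both genes added, the median of the immunoproteasome genes was 0.10.

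The standard catalytic subunits were abundant, with log2 ratios close to 0. Psmb5, the chymotrypsin-like subunit, had 5533 counts in shcircCsnk1g3 and 5868 in shCTR, a log2 ratio of 0.02 (-0.03 to 0.08). Psmb6, the caspase-like subunit, had 6196 and 6508 counts, a ratio of 0.04 (-0.01 to 0.09). Psmb7, the trypsin-like subunit, had 5513 and 6145 counts, a ratio of -0.05 (-0.10 to 0.00). All 3 intervals spanned 0 with TMM scaling. With the GC content and length correction, those of Psmb5 (0.09, 0.03 to 0.14) and Psmb6 (0.07, 0.02 to 0.12) lay above 0 and that of Psmb7 (-0.10, -0.15 to -0.05) below, and with total counts those of Psmb5 and Psmb6 lay above 0. For Psmb5, 57.1% of transcript windows also occur in other annotated genes that have no row in the count table.

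Each immuno form was then set against the standard subunit it replaces, a ratio within a library that needs no scaling. Psmb8 to Psmb5 differed by -0.23 on the log2 scale between the libraries (exact interval -0.70 to 0.23), and Psmb9 to Psmb6 by 0.07 (-1.28 to 1.42). Psmb10 to Psmb7 was higher in shcircCsnk1g3 by 0.20 (0.03 to 0.37), the pair whose interval lay clear of 0. On the opposite strand Psmb7 overlaps Nek6 and Gm13586, and Psmb10 overlaps Gm16156. The strand setting of the counting is not given in the sources used here, so reads in these overlaps cannot be told apart. Per length of merged exons, Psmb8 made up 0.350% (0.274 to 0.440) of its pair in shcircCsnk1g3 and 0.411% (0.330 to 0.505) in shCTR. Psmb9 made up 0.0907% (0.0453 to 0.162) and 0.0864% (0.0431 to 0.155) of its pair. Psmb10 made up 18.4% (17.1 to 19.6) and 16.4% (15.2 to 17.6), so at the RNA level the standard form was the larger part of every pair in both libraries. These shares depend on the length used: with the longest coding transcript, Psmb8 was at 0.723% and 0.849% and Psmb10 at 9.02% and 7.95%.

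**Figure D2:**
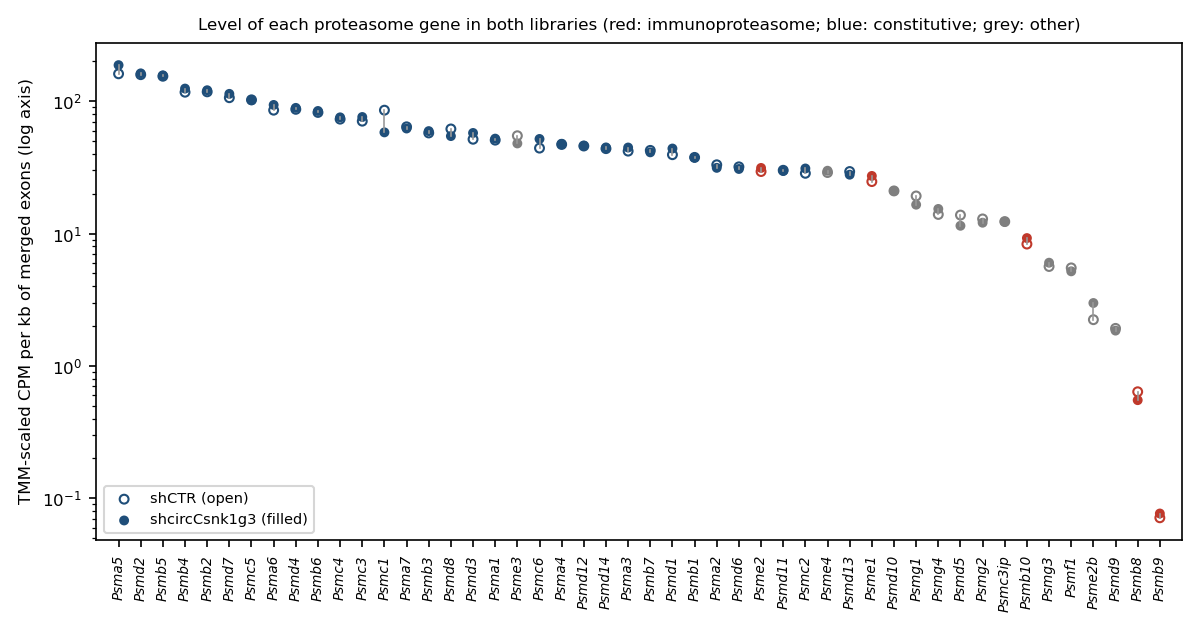
Level of the 48 tested proteasome genes (x axis, ordered by the mean of both libraries) in TMM-scaled CPM per kb of merged exons, on a log axis. Filled circles are shcircCsnk1g3 and open circles shCTR, 1 library each, with no error drawn. The circles nearly coincide for most genes, Psmb8 and Psmb9 stand far below the rest, and Psmc1 has the clearest gap among abundant genes.

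The immunoproteasome genes covered the lower part of the range of levels. Per kb of merged exons, the constitutive subunits lay between 27.8 and 187 CPM per kb in shcircCsnk1g3 and between 28.5 and 161 CPM per kb in shCTR, a span of 6.73-fold and 5.65-fold. Psme2 (31.3 and 29.4 CPM per kb) lay inside that range in both libraries and Psme1 (27.3 and 24.7) just under its lower end. Psmb10 (9.24 and 8.33) came 42nd of the 48 tested genes by mean level, Psmb8 (0.551 and 0.637) 47th and Psmb9 (0.0766 and 0.0711) last. As a share of the library, the 5 genes together took 0.0135% (0.0131 to 0.0139) of counts in shcircCsnk1g3 and 0.0122% (0.0118 to 0.0125) in shCTR, and the 31 constitutive subunits 0.582% (0.579 to 0.584) and 0.555% (0.552 to 0.557).

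The comparison of the groups gave a small difference in medians. The 5 immunoproteasome genes had a median log2 ratio of 0.09, with 4 higher and 1 lower in shcircCsnk1g3, 2 intervals above 0 and none below. The 31 constitutive subunits had a median of 0.04, with 21 higher and 10 lower, 11 intervals above 0 and 4 below. These interval counts are for TMM scaling. More constitutive intervals lay above 0 with total counts and with the GC content and length correction. Fewer lay below 0 with the first and more with the second. The interval of Psmb10 lay above 0 under both. Of all tested genes, 50.4% were higher, 26.9% had an interval above 0 and 28.2% below. The medians differed by 0.05. The immunoproteasome median is the value of Psmb9, with 11 counts in each library; over the genes with 200 or more counts, Psmb10, Psme1 and Psme2, it was 0.14 and the difference 0.10. None of the immunoproteasome genes lay above the highest constitutive subunit (Psmc6, 0.23) or below the lowest (Psmc1, -0.56), and 26 of the 31 constitutive subunits lay within the range of the immunoproteasome genes (-0.21 to 0.15). The plot of ratio against level shows the immunoproteasome genes inside the cloud of genes of like abundance.

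**Figure D3:**
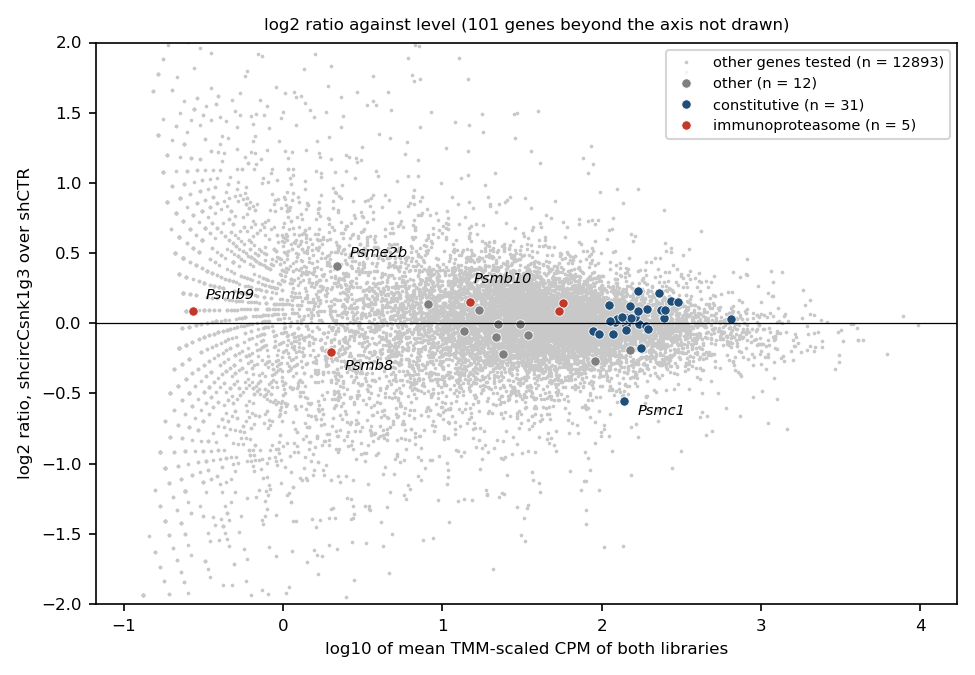
log2 ratio of shcircCsnk1g3 over shCTR (y axis) against the log10 of mean TMM-scaled CPM (x axis) for the 12941 tested genes, 1 library per condition. Grey dots are other genes, blue the 31 constitutive subunits, red the 5 immunoproteasome genes and dark grey the other members. The constitutive subunits form a compact group near 0 at high level, with Psmc1 below it.

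The 20S core was even across its rings. The 7 alpha ring genes had a median log2 ratio of 0.04 and ran from -0.08 for Psma2 to 0.22 for Psma5. Psma5 had 9709 counts in shcircCsnk1g3 and 8996 in shCTR, a ratio of 0.22 (0.18 to 0.26), and was the most abundant member per length. For Psma5, 54.5% of the transcript windows are shared with other annotated genes, among them Gm8394, which had 14 and 5 counts. The 4 beta ring genes without catalytic activity had a median of 0.04, from -0.01 for Psmb1 to 0.09 for Psmb4. Over all 14 standard core genes, 4 intervals lay above 0 and 1 below with TMM scaling, beside 26.9% and 28.2% of all tested genes. With total counts, those of Psma1, Psmb2, Psmb3, Psmb5 and Psmb6 also lay above 0 and that of Psma2 spanned 0. With the GC content and length correction, those of Psmb2, Psmb3, Psmb5 and Psmb6 also lay above 0. With it, that of Psma3 spanned 0 and that of Psmb7 lay below. Every one of the 14 lay within 0.25 of 0, as did 74.7% of the genes with 200 or more counts, a group that includes scarcer genes. The SD across the 14 was 0.08, beside 0.21 for genes with 5000 or more counts, as all 14 had. The tissue-restricted core subunits were not tested: Psma8, the alpha subunit of the testis, had no count, and Psmb11, the beta subunit of the thymus, had 1 count in shcircCsnk1g3 and 0 in shCTR. A level of 3 counts is 0.0765 CPM in shcircCsnk1g3 and 0.0710 CPM in shCTR.

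The ATPases at the base of the 19S cap held the member furthest from 0. Psmc1 (ENSMUSG00000021178, chromosome 12, 100110154 to 100123405), also called Rpt2, had 4409 counts in shcircCsnk1g3 and 6988 in shCTR, 112 and 165 CPM. Its log2 ratio was -0.56 (-0.61 to -0.50), or 0.680 times the control level, short of the 1.5-fold threshold, which its interval crossed. Of the 3884 genes with 5000 or more counts over both libraries, 57 (1.47%) were as low or lower. Psmc1 was singled out as the lowest member, so this share describes a picked gene. The other 5 ATPases of the ring ran from -0.01 (Psmc5) to 0.23 (Psmc6). Psmc6 had 7115 and 6537 counts (0.18 to 0.28). Set against each of the other ATPases within a library, Psmc1 was lower in shcircCsnk1g3 by amounts between -0.55 (-0.62 to -0.47, to Psmc5) and -0.79 (-0.86 to -0.71, to Psmc6). All these pairs use the same Psmc1 counts, so they add no separate support. The 6 ATPases are built into the ring in equal numbers, and no protein was measured here. Of the transcript windows of Psmc1, 17.6% also occur in other annotated genes without a row in the count table, and the part of these in the difference was not tested. Without Psmc1, the spread of the constitutive log2 ratios (SD across genes) was 0.09 in place of 0.14.

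The rest of the 19S cap stayed nearer to 0. Psmd1 and Psmd2, the scaffolds of the base, and Psmd4, a ubiquitin receptor, were at 0.15, 0.03 and 0.04. Psmd1 had 12509 and 12105 counts (0.12 to 0.19), and 8.36% of its windows also occur in Gm21972, which had no count. The 8 lid genes had a median of -0.01, with 2 intervals above 0 and 2 below, close to the 26.9% and 28.2% of all tested genes. At their ends lay Psmd8 with 6537 counts in shcircCsnk1g3 and 7971 in shCTR, -0.18 (-0.23 to -0.13), and Psmd3 with 11214 and 10831 counts, 0.16 (0.12 to 0.20). Psmd14, which encodes the enzyme that cuts ubiquitin chains from substrates, had 4950 and 5222 counts and a ratio of 0.03 (-0.03 to 0.09).

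The other activators and the inhibitor lay on both sides of 0. Psme3, which encodes the nuclear PA28 gamma and is not part of the immunoproteasome, had 5548 counts in shcircCsnk1g3 and 6834 in shCTR, a log2 ratio of -0.19 (-0.24 to -0.14). Psme4, which encodes the activator PA200, had 9808 and 10243 counts, 0.04 (0.00 to 0.09), and spanned 0 with the GC content and length correction (-0.01 to 0.07). Psmf1, the inhibitor PI31, had 1309 and 1497 counts, -0.09 (-0.19 to 0.02), and lay below 0 with that correction (-0.23 to -0.02). Within the PA28 family the balance differed between the libraries: Psme1 to Psme3 was higher in shcircCsnk1g3 by 0.33 (0.24 to 0.43) and Psme2 to Psme3 by 0.28 (0.18 to 0.38). Psme1 to Psme2, the partners in 1 ring, differed by 0.05 (-0.07 to 0.17).

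Of the assembly chaperones, 1 of 4 for the core and 1 of 3 for the 19S base had an interval below 0, close to the 28.2% of all tested genes. For the core, Psmg1 had 871 counts in shcircCsnk1g3 and 1092 in shCTR, a log2 ratio of -0.22 (-0.35 to -0.09). Psmg2, its partner in the first dimer, had 823 and 947 counts, -0.09 (-0.23 to 0.04). The second dimer lay on the other side of 0, with 683 and 689 counts for Psmg3, 0.09 (-0.06 to 0.25), and 334 and 327 counts for Psmg4, 0.14 (-0.09 to 0.36). Among these 4, the interval of Psmg1 lay clear of 0, and with the GC content and length correction so did that of Psmg4 (0.01 to 0.46). For the 19S base, Psmd5 had 3246 and 4213 counts, -0.27 (-0.34 to -0.20), the lowest member after Psmc1. The other base chaperones Psmd9 and Psmd10 were at -0.06 and -0.00 with intervals that spanned 0. Psmc3ip had 875 and 946 counts, -0.01 (-0.14 to 0.13).

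Genes that act with the proteasome but lie outside the name pattern also centred near 0. Of 16 listed partners, 15 were tested, with a median log2 ratio of -0.00, 7 higher and 8 lower, and 5 intervals above 0 and 5 below, beside 50.4% and 49.6%, and 26.9% and 28.2%, of all tested genes. Ubqln2, a shuttle that carries ubiquitinated proteins to the proteasome, had 2834 counts in shcircCsnk1g3 and 5326 in shCTR, -0.80 (-0.87 to -0.74), the 1 gene of this list past 1.5-fold, beside 6.31% of all tested genes that far lower. Pomp, the maturation factor of the core, had 2623 and 2887 counts, -0.03 (-0.11 to 0.05). Of 5 ubiquitin genes, 3 had an interval below 0, beside 28.2% of all tested genes, and the list median was -0.05 (-0.02 with total counts).

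Regulators of proteasome transcription were higher in shcircCsnk1g3 by less than 1.5-fold. All 4 tested genes of the 5 listed had an interval above 0, beside 26.9% of all tested genes and 29.5% of those with 200 or more counts, and their median was 0.23. Nfe2l1, the factor that raises proteasome genes when the proteasome is blocked, had 20945 counts in shcircCsnk1g3 and 19645 in shCTR, 0.20 (0.17 to 0.23). Nfe2l2, the factor of the antioxidant response, had 8786 and 7912 counts, 0.26 (0.21 to 0.30). Ngly1 and Ddi2, which process Nfe2l1, were at 0.30 and 0.08, and Nfe2l3 was not tested at 8 and 4 counts. The constitutive subunits with the antioxidant motif in their window, Psmb5, Psmb6, Psmc6 and Psmd12, were at 0.02, 0.04, 0.23 and 0.01.

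Genes that control the immunoproteasome through interferon had a higher median log2 ratio than the immunoproteasome genes themselves (0.19 and 0.09), and the difference was not tested. The 0.09 is the value of the scarce Psmb9, and over genes with 200 or more counts the medians were closer, at 0.19 and 0.14. Of 13 listed genes 12 were tested, with 8 higher and 4 lower, 6 intervals above 0 and 3 below, and 2 at least 1.5-fold higher (Irf9 and Stat2). The shares of all tested genes were 50.4% higher, 26.9% and 28.2% with an interval above and below 0, and 5.39% at least 1.5-fold higher. Irf1, which drives immunoproteasome genes after interferon gamma, had 2093 counts in shcircCsnk1g3 and 1669 in shCTR, a log2 ratio of 0.43 (0.34 to 0.53). Nlrc5, the activator of MHC class I genes, had 2093 and 1847 counts, 0.29 (0.20 to 0.38). The interval of Irf1 lay above those of Psmb8, Psme1 and Psme2 and overlapped that of Psmb9. It lay above that of Psmb10 with TMM scaling, but with the GC content and length correction Irf1 was at 0.41 and the interval of Psmb10 reached 0.35, so they overlapped.

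**Figure D4:**
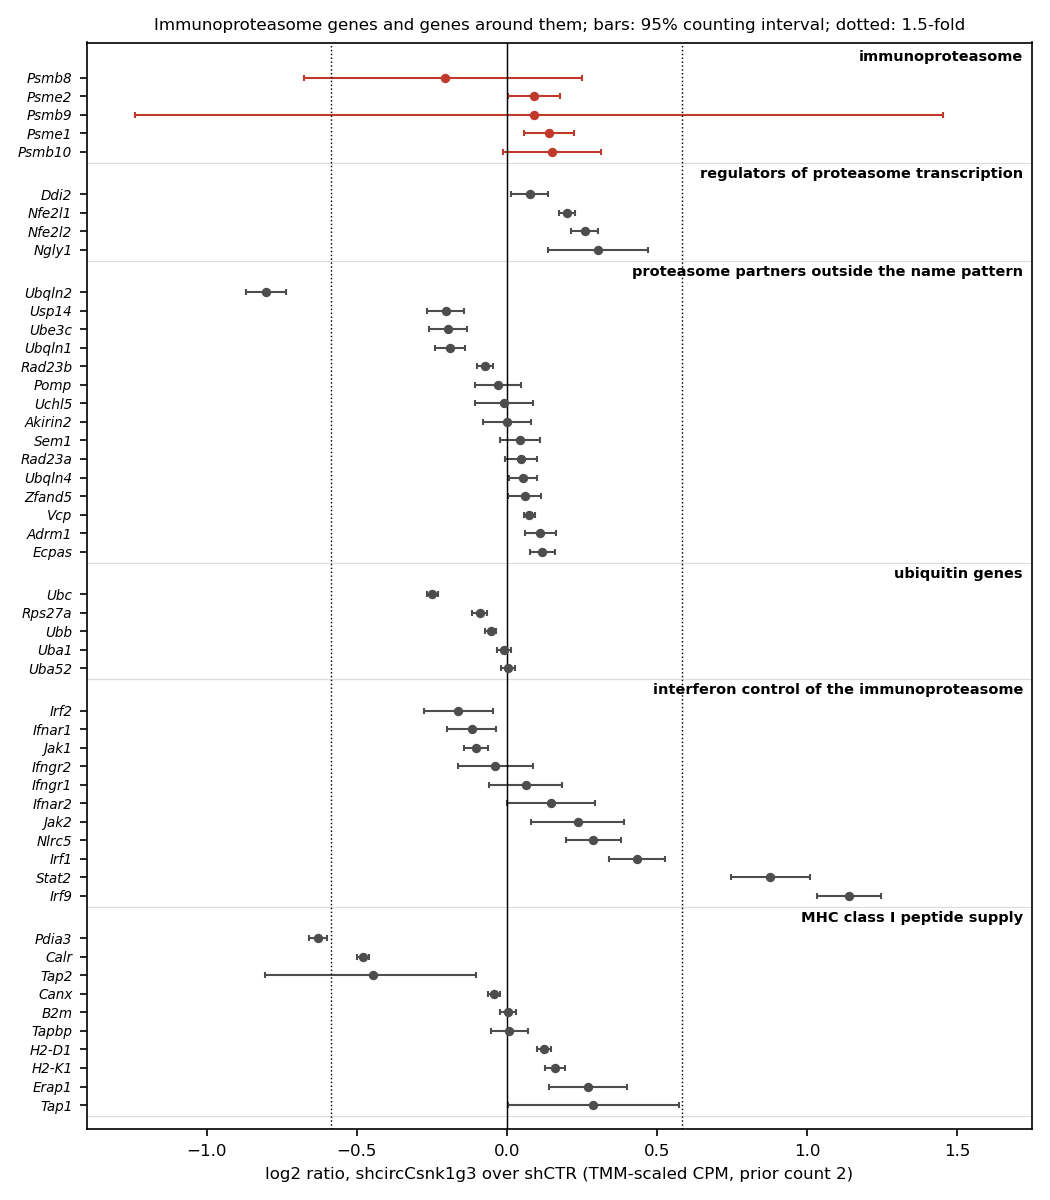
log2 ratio of TMM-scaled CPM, shcircCsnk1g3 over shCTR (x axis), for the immunoproteasome genes (red) and tested genes of 5 related lists (dark grey, 1 not drawn), 1 library per condition. Bars are 95% counting intervals and dotted lines 1.5-fold. Irf9 and Stat2 lie past 1.5-fold higher, and Ubqln2 and Pdia3 past 1.5-fold lower.

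The genes that deliver peptides to MHC class I had no common direction. The median of the 10 genes was 0.01, with 4 intervals above 0 and 4 below, beside 26.9% and 28.2% of all tested genes, and Pdia3, a chaperone of the loading complex, was the 1 past 1.5-fold at -0.63, beside 6.31% of all tested genes that far lower. Tap1 and Tap2 encode the subunits of the peptide transporter and lie beside Psmb8 and Psmb9 on chromosome 17. Tap1 had 221 counts in shcircCsnk1g3 and 195 in shCTR, 0.29 (0.00 to 0.57), and Tap2 had 116 and 171 counts, -0.45 (-0.81 to -0.10), so the partners lay on opposite sides of 0.

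The genes beside the immunoproteasome genes had ratios on both sides of 0. Psmb8 lies 496 bases from Tap1 and 2073 from Tap2, and its ratio of -0.21 lay between theirs. Relative to Tap1, Psmb8 was at -0.50 (-1.05 to 0.05), and relative to Tap2 at 0.24 (-0.35 to 0.83), so neither difference was resolved at this depth. Psmb9 overlaps Tap1 on the opposite strand. The library kit keeps strand but the counting setting is not given in the sources used here, so reads in the overlap cannot be told apart. On chromosome 14, Psme1 and Psme2 lie 5912 bases apart, at 0.14 and 0.09. Rnf31 lies 595 bases from Psme2 and had 1737 and 1444 counts, 0.37 (0.27 to 0.48), and Irf9 lies 12458 bases from it and had 2196 and 1073 counts, 1.14. Psme1 overlaps Emc9 on the opposite strand, which had 120 and 146 counts, -0.17 (-0.54 to 0.18). Dcaf11, 8058 bases from Psme1, had 1327 and 1402 counts, 0.03 (-0.08 to 0.14). Beside Psmb10 on chromosome 8, the abundant genes lay near 0: Slc12a4 had 6073 and 6869 counts, -0.07 (-0.12 to -0.02), and Pskh1 had 2476 and 2732 counts, -0.03 (-0.11 to 0.04). The scarce genes there were Lcat with 25 and 55 counts, -0.98 (-1.77 to -0.32), and Ctrl with 10 and 7 counts, 0.50 (-0.92 to 2.25).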

How the data were processed

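Processed data were used from 2 poly(A) RNA-seq libraries, 1 shcircCsnk1g3 and 1 shCTR, prepared with a stranded kit. According to the study's methods, the authors demultiplexed with bcl2fastq 2.20, aligned to GRCm38 with STAR 2.6.1, quantified genes with RSEM 1.2.28 and used edgeR 3.30. The GENCODE release and the strand setting are not given in the sources used here. The first deposited table lists 25509 genes with their estimated count, which the authors had rounded. Its 92 spike-in rows, 0 in both libraries, were left out. The second deposited table holds TMM-scaled CPM for 11624 genes, 47 of them members, and served as an alternative. RSEM divides reads that match several genes.

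TMM factors (1.01 and 0.989) came from edgeR 4.0.16 in R 4.3.3 over genes with 10 counts or more in either library. The log2 ratio used CPM with a prior count of 2, which pulls the ratio of scarce genes towards 0. Intervals of ratios are 95% Clopper-Pearson, and those of pair ratios are exact conditional odds ratios. They cover counting error only, and PCR duplicates are not independent molecules. With 1 library per condition no test was made, and 1.5-fold served as the threshold. Levels between genes were compared per kb of merged exons. Coordinates are from GENCODE M21 on GRCm38, in which all 50 members and 25251 of 25509 genes were found. Shared sequence was counted as 50-base windows of a gene's longest protein-coding transcript that occur in transcripts of other genes. Promoter windows are RefSeq's (GRCm38.p6). The rest was done in python 3.11.15 (pandas 2.3.3, numpy 2.4.6, scipy 1.17.1), with figures by matplotlib 3.10.9, and the steps were tested on simulated data.

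The members and lists were chosen with earlier results of these data known. Named genes were the 5 immunoproteasome genes, their counterparts, the activators and inhibitor, the assembly genes, and the 5 highest and 5 lowest ratios among members with 200 or more counts over both libraries. A few genes outside the pattern were set in the same rule. Psmd14, Psma8, Psmb11, Psme2b, Psmc3ip, Ubqln2, Pdia3, Stat2, Irf9, Rnf31, the genes beside Psmb10 and other genes given only a ratio were named after their values were seen. The rank of Psmc1 and the pairs with Psmc1, within the PA28 family and with Tap1 or Tap2 were not among the planned comparisons. A result for 1 gene of the interferon list is not reported here. Alternatives were DESeq2 1.42.0 size factors, total counts, the deposited CPM table, other prior counts, filters and thresholds, a GC content and length correction, and other definitions of the groups.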

Additional observations from a re-analysis of the deposited data

How the results depend on the processing

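No paired analysis was possible because each condition had 1 library, and for the same reason no replicate could be left out. Differences between cultures and an effect of the hairpin cannot be told apart. Of 427 values of single proteasome genes under the alternatives, 419 stayed within their own counting intervals, 8 moved out of them, and no ratio with an interval clear of 0 changed sign. Count filters cannot change the ratio of a gene, so the values under them stayed by construction. Psmd2 moved with total counts. With the GC content and length correction Psmd2, Psmc6, Psmb5, Psmb7, Psmb2, Psma3 and Psma5 moved. The median of the immunoproteasome genes ranged from 0.09 to 0.14 and its difference from the constitutive median from 0.05 to 0.10. The count of members with an interval above 0 was 24 with total counts, where the median of all genes shifted to 0.03, in place of 14. The GC content and length correction gave 21 above and 10 below. The count 1.5-fold higher was 1 without a count filter, which by construction adds Psmb11 at 1 and 0 counts. At the looser threshold of 0.32 on the log2 scale, 1 member was higher and 1 lower. With the longest coding transcript as length, the Psmb8 share was 0.723% and 0.849% and the Psmb10 share 9.02% and 7.95%, in shcircCsnk1g3 and shCTR, since the lengths themselves differ. Leaving out the 8 constitutive genes that share over 10% of their windows with other genes, an alternative chosen after seeing the data, left the constitutive median at 0.04 over 23 genes. At 11 counts a library, Psmb9 could show only differences beyond its interval of -1.24 to 1.45.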
